A study of Mus musculus with 4 samples.

Results

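The genes of the pre-B cell receptor were followed in T8, a leukemia cell line, after IRF4 was returned to it. The 6 members were taken from a fixed list out of 55359 gene identifiers. They comprise the 3 surrogate light chain genes Igll1, Vpreb1 and Vpreb2, the related gene Vpreb3, and the 2 signaling chain genes Cd79a and Cd79b. T8 was established from a single primary pre-B cell tumor of an Irf4-/- mouse on the C57BL/6 background, so both groups share that genotype and a Jak3 mutation of that tumor, and stand for 1 tumor. The cells were transduced with a retrovirus coding for GFP alone (EV-RV) or for GFP and IRF4 (IRF4-RV), and viable cells were collected 24 h later for bulk RNAseq. Each group held 2 libraries, which the labels call biological replicates. The share of transduced cells is not given in the sources used here, and the protocol text in the labels names another line, T11, where the titles and tissue name T8.

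A pre-B cell places its newly made Ig heavy chain on the surface together with a surrogate light chain, in which a VpreB protein pairs with λ5, the product of Igll1. The complex signals through Igα and Igβ, the products of Cd79a and Cd79b, which also carry the signal of the mature B cell receptor. Signaling drives a burst of division, after which the surrogate light chain genes are shut off and a conventional light chain is made. VpreB3 is related to the VpreB proteins by sequence but is held inside the cell and is not part of the surface surrogate light chain.

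Igll1 (ENSMUSG00000075370) and Vpreb1 (ENSMUSG00000059305) are neighbors on the minus strand of chromosome 16 in GRCm38, at chr16:16860671-16863985 and chr16:16868403-16870843. Vpreb2 (ENSMUSG00000059280) lies further along the same chromosome on the plus strand, at chr16:17980428-17981273. Vpreb3 (ENSMUSG00000000903) is at chr10:75943057-75949657 on the plus strand. Cd79a (ENSMUSG00000003379) is at chr7:24897381-24902197 on the plus strand and Cd79b (ENSMUSG00000040592) is at chr11:106311341-106314762 on the minus strand.

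Vpreb1 and Vpreb2 are near copies, and the likeness reaches into the sequence around their starts. A stretch of 156 bases lies within the promoter windows of both genes in the RefSeq table (GRCm38.p6), which run from 250 bases before to 50 after each annotated start. It is shown because it is the part the windows share, and for Vpreb2 most of it lies before the gene as GENCODE annotates it. It is at chr16:16869206-16869361 on the minus strand for Vpreb1 and at chr16:17980315-17980470 on the plus strand for Vpreb2, and capitals mark the bases that differ.
Vpreb1: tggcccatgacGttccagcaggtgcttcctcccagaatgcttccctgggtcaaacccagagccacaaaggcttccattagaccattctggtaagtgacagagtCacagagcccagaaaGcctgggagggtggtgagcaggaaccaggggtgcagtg
Vpreb2: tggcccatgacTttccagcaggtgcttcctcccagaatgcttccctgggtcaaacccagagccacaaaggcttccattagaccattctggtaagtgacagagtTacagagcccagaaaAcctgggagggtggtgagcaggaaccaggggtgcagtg
Of the 156 bases, 153 were identical. The differences were G12T, C104T and G119A, with the Vpreb1 base first and positions counted from 1 at the 5′ end of the stretch. The RefSeq start lies inside the stretch for Vpreb1 and past its end for Vpreb2, so distances from the start cannot be set side by side. Within the transcripts, 23.6% of the stretches of 50 bases in Vpreb1 and 32.8% of those in Vpreb2 also occurred in another gene. For Vpreb2 all of these were in Vpreb1. For Vpreb1, 233 were in Vpreb2 and 59 in Top3b, whose exons overlap those of Vpreb1 on the other strand. How reads with several alignments were counted is not given in the sources used here, so the split of counts between Vpreb1 and Vpreb2 is uncertain.

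The promoter windows of Igll1 and Vpreb3 are shown because these genes moved in opposite directions. The Igll1 window is chr16:16863936-16864235 on the minus strand, and the Vpreb3 window is chr10:75948050-75948349 on the plus strand. Distances are counted from the start that RefSeq annotates. For Vpreb1, Vpreb2, Vpreb3 and Cd79a this start lies inside the GENCODE gene span given above. A match before it can thus lie within the gene as GENCODE annotates it. Capitals mark matches to the searched motifs.
Igll1: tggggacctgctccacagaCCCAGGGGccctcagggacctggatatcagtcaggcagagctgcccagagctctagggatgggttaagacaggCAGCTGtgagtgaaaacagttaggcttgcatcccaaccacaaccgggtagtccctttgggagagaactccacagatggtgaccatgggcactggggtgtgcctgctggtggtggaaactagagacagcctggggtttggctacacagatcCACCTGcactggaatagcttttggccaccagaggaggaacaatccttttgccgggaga
Vpreb3: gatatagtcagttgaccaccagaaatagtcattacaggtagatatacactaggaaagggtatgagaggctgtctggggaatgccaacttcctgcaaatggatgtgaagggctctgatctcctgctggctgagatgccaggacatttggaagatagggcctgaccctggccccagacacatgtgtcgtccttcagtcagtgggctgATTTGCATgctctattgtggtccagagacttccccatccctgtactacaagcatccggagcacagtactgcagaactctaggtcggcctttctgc
Motifs were searched on both strands. The core bound by EBF factors (CCCNNGGG) occurred in the Igll1 window 231 bases before the start, and in 13.7% of 32851 promoter windows. The E-box CAGCTG, a form bound by E2A proteins, occurred 158 bases before the Igll1 start and 60 bases before that of Vpreb2, and in 16.3% of windows. A second E-box, CAGGTG, occurred in the windows of Igll1, Vpreb1, Vpreb2 and Cd79a, and in 20.2% of all windows. The octamer ATTTGCAT, the site of Oct factors, lay 45 bases before the RefSeq start of Vpreb3, against 1.74% of windows, and was searched after the sequence had been seen. The IRF element GAAANNGAA and the ETS-IRF composite GGAANNGAA had no match in the 5 windows that could be searched, and they occurred in 8.56% and 8.24% of all windows. No window was listed for Cd79b.

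Total counts were 31686715 and 31230223 for EV-RV, and those for IRF4-RV were 34771970 and 37817752. At these depths 3 counts correspond to 0.0824 to 0.0952 CPM, which are counts scaled by library size and TMM factor. Irf4 read 242 and 241 CPM with EV-RV, against 2822 and 2491 CPM with IRF4-RV, a log2 fold change of 3.46 (SE 0.09, edgeR quasi-likelihood test, adjusted p = 1.14e-06). Reads from the vector and from the disrupted gene were not separated. The B-lineage markers ranged from Cd24a, at 1583 to 1862 CPM in the 4 libraries, to Rag1, with at most 1 count in each. Markers of the ST2 stromal cells on which the line was first grown summed to 47.5 and 89.4 CPM with EV-RV and to 47.0 and 221 CPM with IRF4-RV, so IRF4-RV replicate 2 was highest. None of the 6 stromal markers tested passed the cutoff, Dcn read 0, 0, 2 and 0 counts and Lum 0, 0, 0 and 1. The 10 T and NK cell markers summed to 62 to 101 counts per library, and 3 of them were at 0 in every library. Most of these counts came from Klrb1c (42, 33, 35 and 54) and Cd5 (50, 23, 28 and 29). The 9 myeloid markers summed to 3 to 5 counts per library. Of 6 mature B and plasma cell markers 5 were tested, where 29.7% of all genes tested were called. Prdm1 was called higher, at 2.13 (log2) on 8, 9, 46 and 35 counts, and Sdc1 lower, at -0.81.

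All 6 members passed the filter on low counts. All 3 surrogate light chain genes fell with IRF4-RV, Vpreb3 rose, and neither signaling chain gene passed the test. Thus 4 of 6 members were called at an adjusted p under 0.1, where 29.7% of the 14637 genes tested were called. In the whole transcriptome 13.7% of genes were called lower and 16% higher, and the median log2 fold change was 0.01. In bulk RNA, fewer cells of a type and less RNA per cell cannot be told apart.

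Igll1, which codes for λ5, was at 894 and 1013 CPM with EV-RV and at 369 and 407 CPM with IRF4-RV. Both IRF4-RV libraries lay well below both EV-RV libraries. The means were 953 ± 84.0 and 388 ± 26.3 CPM (SD, n = 2), 2.46-fold lower. The log2 fold change was -1.30 (SE 0.09, 95% interval -1.51 to -1.09, adjusted p = 5.95e-05 in edgeR).

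Vpreb1, which codes for a VpreB chain, was at 612 and 719 CPM with EV-RV and at 230 and 243 CPM with IRF4-RV. The groups did not overlap, and the drop was 2.81-fold. The log2 fold change was -1.49 (SE 0.09, 95% interval -1.71 to -1.27, adjusted p = 3.82e-05 in edgeR). Among all genes tested, ordered from the largest fall, Vpreb1 ranked 164, Vpreb2 232 and Igll1 240.

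Vpreb2, which codes for the other VpreB chain, was at 542 and 642 CPM with EV-RV and at 227 and 247 CPM with IRF4-RV. The groups were again apart, with a 2.49-fold drop. The log2 fold change was -1.32 (SE 0.10, 95% interval -1.55 to -1.09, adjusted p = 8.62e-05 in edgeR). With the counts of Vpreb1 and Vpreb2 summed as 1 feature, which does not depend on how shared reads were split between them, the log2 fold change was -1.41 (adjusted p = 5.43e-05 in edgeR).

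Vpreb3 was at 92.8 and 103 CPM with EV-RV and at 165 and 158 CPM with IRF4-RV. Here the IRF4-RV libraries were the higher ones, by 1.65-fold. The log2 fold change was 0.72 (SE 0.08, 95% interval 0.53 to 0.92, adjusted p = 0.000744 in edgeR).

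Cd79a, which codes for Igα, was at 910 and 922 CPM with EV-RV and at 906 and 907 CPM with IRF4-RV. The 4 values lay close together, although the groups did not overlap. The log2 fold change was -0.01 (SE 0.07, adjusted p = 0.908 in edgeR), with a 95% interval from 11.3% lower to 10.5% higher. A pseudogene, Gm32220, shares 8.31% of the stretches of 50 bases in Cd79a.

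Cd79b, which codes for Igβ, was at 293.22 and 293.22 CPM with EV-RV and at 290 and 293.18 CPM with IRF4-RV. The values of replicate 2 of both groups were nearly the same. The log2 fold change was -0.01 (SE 0.07, adjusted p = 0.944 in edgeR), with a 95% interval from 10.9% lower to 10.9% higher.

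**Figure D1:**
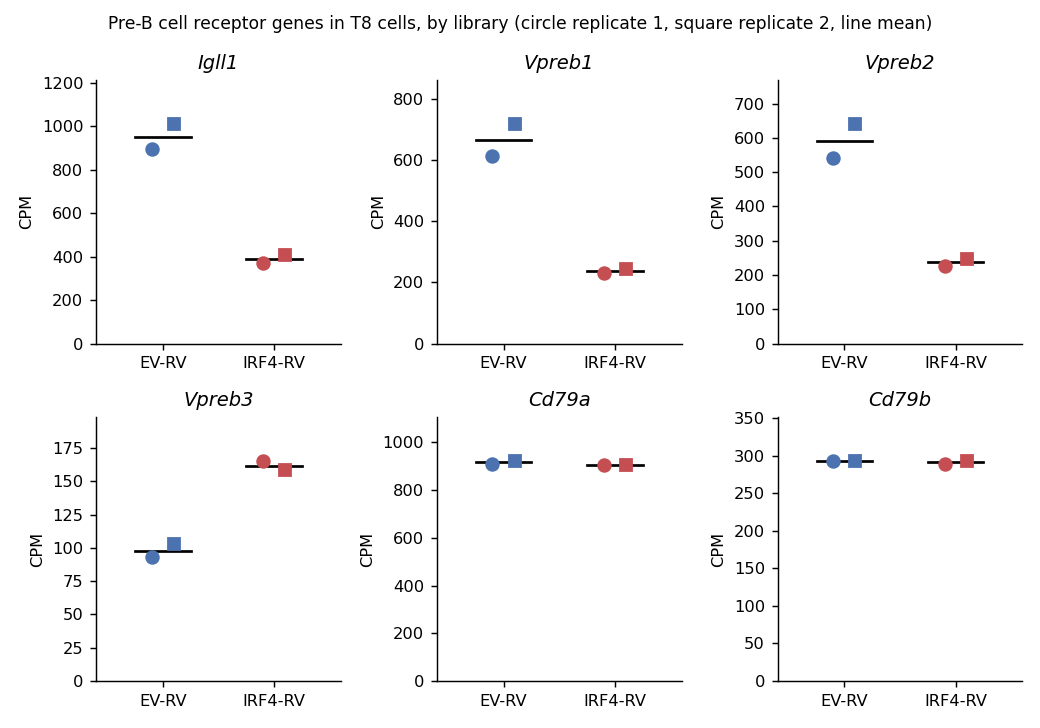
CPM of each member in the 4 libraries (y axes, each from 0) for EV-RV and IRF4-RV (x axes), with circles for replicate 1, squares for replicate 2 and lines for the mean. Igll1 falls from 894 and 1013 to 369 and 407 CPM and Vpreb3 rises from 92.8 and 103 to 165 and 158 CPM, while the 4 values of Cd79a lie between 906 and 922 CPM.

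Without IRF4-RV replicate 2, the library with the highest stromal markers, the log2 fold changes were -1.36 for Igll1, -1.52 for Vpreb1 and -1.37 for Vpreb2. Vpreb3 was then at 0.76, Cd79a at -0.01 and Cd79b at -0.01. The 4 calls were all made without this library too.

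To compare levels between genes, CPM were divided by the length in kb of the longest coding transcript. With EV-RV the order was Igll1 at 1096 ± 96.6, Vpreb1 at 868 ± 98.7, Vpreb2 at 780 ± 92.7, Cd79a at 629 ± 5.63, Cd79b at 205 and Vpreb3 at 134 ± 10.0 CPM per kb (SD, n = 2). The individual values of Vpreb1 and Vpreb2 overlapped in this group. With IRF4-RV Cd79a came first at 622 CPM per kb, followed by Igll1 at 446 ± 30.2, Vpreb2 at 313 ± 18.6, Vpreb1 at 309 ± 12.1, Vpreb3 at 222 ± 6.65 and Cd79b at 204 ± 1.77. Vpreb1 and Vpreb2 overlapped there too, and no other neighbors in either order did. Thus all 3 surrogate light chain genes stood above Cd79a with EV-RV and below it with IRF4-RV. Over the union of all annotated exons, which for Igll1 and Vpreb1 includes retained introns, Igll1 was at 441 and Vpreb1 at 555 CPM per kb with EV-RV, below Cd79a, so this order depends on the length used.

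The difference between the surrogate light chain and the signaling chains was tested directly, with the summed Cd79a and Cd79b counts of each library in place of its size. In this fit 30.2% of genes were called. Igll1 gave 0.743 and 0.833 counts per count of Cd79a and Cd79b with EV-RV, against 0.309 and 0.339 with IRF4-RV. Its log2 fold change against the signaling chains was -1.28 (SE 0.09, adjusted p = 5.8e-05 in edgeR).

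Vpreb1 gave 0.508 and 0.591 counts per signaling chain count with EV-RV, against 0.193 and 0.203 with IRF4-RV. The relative log2 fold change was -1.48 (SE 0.09, adjusted p = 3.95e-05 in edgeR). Vpreb2 gave 0.450 and 0.528 with EV-RV, against 0.190 and 0.206 with IRF4-RV. The relative change of Vpreb2 was -1.30 on the log2 scale (SE 0.09, adjusted p = 8.47e-05 in edgeR). Both genes were thus lower against the signaling chains in each IRF4-RV library.

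Vpreb3 gave 0.0771 and 0.0849 counts per signaling chain count with EV-RV, against 0.138 and 0.132 with IRF4-RV. It rose against the signaling chains by 0.74 on the log2 scale (SE 0.08, adjusted p = 0.000627 in edgeR). The exact two-sided permutation test of each ratio over the libraries gave p = 0.333, the smallest that 2 against 2 libraries allow.

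**Figure D2:**
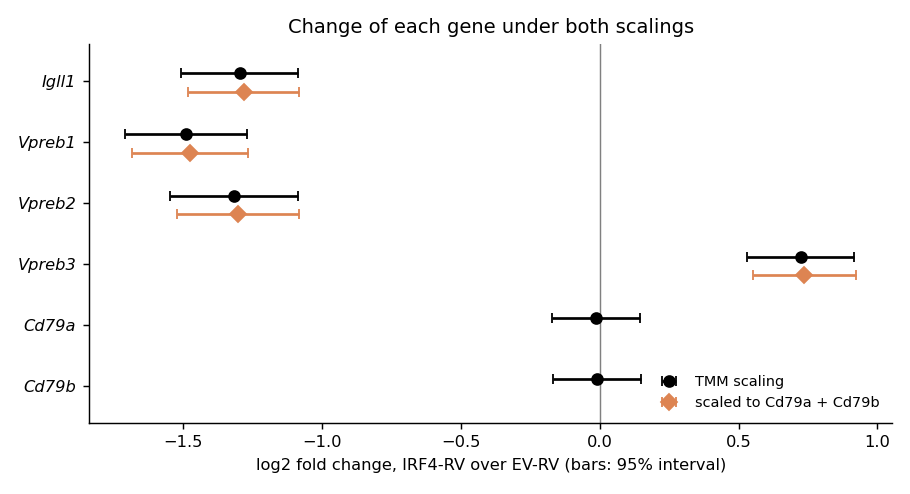
Log2 fold change of each member, IRF4-RV over EV-RV (x axis), with 95% intervals as bars, for TMM scaling (black circles) and scaling to Cd79a and Cd79b (orange diamonds). The surrogate light chain genes lie between -1.49 and -1.28 and Vpreb3 at 0.72 and 0.74, and the intervals of Cd79a and Cd79b include 0.

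**Figure D3:**
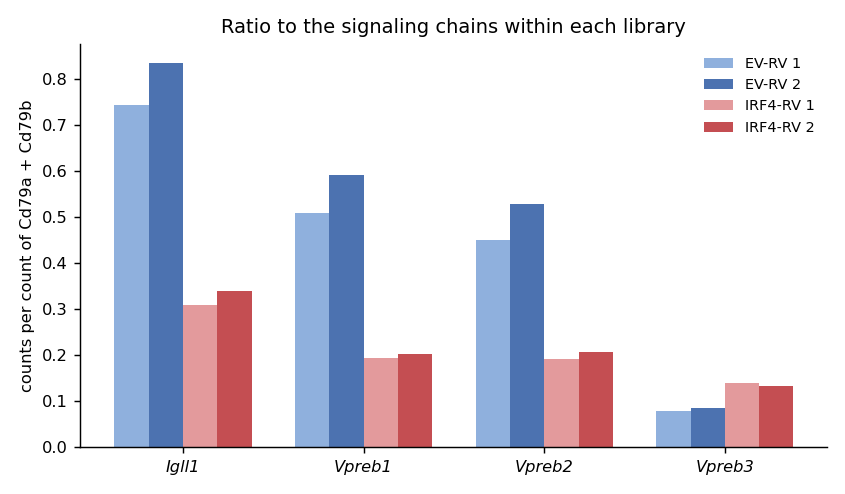
Counts per summed count of Cd79a and Cd79b (y axis) in each of the 4 libraries (bars) for 4 members (x axis). The Igll1 bars fall from 0.743 and 0.833 to 0.309 and 0.339, and the Vpreb3 bars rise from 0.0771 and 0.0849 to 0.138 and 0.132.

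Summed, the surrogate light chain genes held 0.216% and 0.240% of the counts with EV-RV, against 0.0806% and 0.0864% with IRF4-RV. Per signaling chain count this was 1.70 and 1.95 with EV-RV, against 0.692 and 0.748 with IRF4-RV. The make-up of the sum moved little. Igll1 made up 43.7% and 42.7% of it with EV-RV, against 44.7% and 45.3% with IRF4-RV.

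The ratio of Cd79a to Cd79b was 3.10 and 3.14 with EV-RV, against 3.13 and 3.10 with IRF4-RV. The ratio of Vpreb1 to Vpreb2 was 1.13 and 1.12 with EV-RV, against 1.01 and 0.984 with IRF4-RV. The VpreB ratio was lower in both IRF4-RV libraries, but it rests on the uncertain split of counts between these genes. Its difference between the groups was not tested. The ratio of Vpreb3 to Igll1 went from 0.104 and 0.102 to 0.447 and 0.389.

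Of 5 Ig chains that pair with or replace the surrogate light chain, 3 were tested and these 3 were called higher, 1 of them on few counts. In the whole set of genes tested, 16% were called higher. Ighm, the μ heavy chain, was at 2016 and 2097 CPM with EV-RV and at 2710 and 2737 CPM with IRF4-RV, a log2 fold change of 0.41 (adjusted p = 0.00509 in edgeR). Igkc, the constant region gene of the κ light chain, was at 177 and 186 CPM with EV-RV. It rose to 458 and 471 CPM in the IRF4-RV libraries, by 1.35 on the log2 scale (adjusted p = 1.95e-05 in edgeR). Whether these counts came from rearranged κ genes was not tested. Rag1 and Rag2, which act in light chain recombination, had at most 1 count in each library. The paper detected no κ or λ chain inside T8 cells that had not received IRF4.

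Igkc thus had 0.198 and 0.184 counts per Igll1 count with EV-RV, against 1.24 and 1.16 with IRF4-RV. Iglc3, a λ light chain gene, had 1 and 2 counts with EV-RV, against 14 and 13 with IRF4-RV (adjusted p = 0.0233 in edgeR). Its call was lost without EV-RV replicate 1 (adjusted p = 0.203), without EV-RV replicate 2 (0.132) or without IRF4-RV replicate 1 (0.118). Iglc2 had 1, 0, 18 and 9 counts and Iglc1 0, 0, 0 and 1 in the same order of libraries, and both were below the filter.

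Of the 21 kinases, adaptors and coreceptors that act next to the receptor, 9 rose, 2 fell and 10 did not pass the test. Over all genes tested 16% were called higher and 13.7% lower. Blk, a Src family kinase, rose by 1.86 on the log2 scale and Pik3ap1, an adaptor for PI3K also called BCAP, by 1.09. Zap70, a kinase related to Syk, fell by 0.50, and Pik3cd, a catalytic subunit of PI3K, fell by 0.30. The Pik3cd call was lost without IRF4-RV replicate 2 (adjusted p = 0.250 in edgeR). Blnk, the adaptor that links Syk to its targets, rose by 1.04 and was named after its values were seen.

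Of 20 transcription factors tied to surrogate light chain expression or its end, 11 rose, 4 fell and 5 did not pass the test. The shares called over all genes were 16% higher and 13.7% lower. Mef2c and Foxo1 rose most, by 1.31 and 1.10 on the log2 scale. Myc and Id3 fell most, by 1.09 and 0.88. Ikzf1 and Ikzf3, which code for Ikaros and Aiolos, repressors of Igll1 in pre-B cells, had log2 fold changes of 0.55 and 0.82 (adjusted p = 0.00222 and 0.00273 in edgeR), and were picked from the list with values known.

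The activators Ebf1, Pax5 and Tcf3 did not pass, with log2 fold changes of -0.24, -0.39 and -0.07 (adjusted p = 0.172, 0.116 and 0.527 in edgeR). Other factors of the list went both ways. Runx1, Sox4 and Spib were called higher, at 0.93, 0.86 and 0.23, and Spi1 and Irf8 lower, at -0.45 and -0.32. Pax5 was at 313 and 234 CPM with EV-RV and at 233 and 183 CPM with IRF4-RV, so the nearest values of the groups were almost equal. Both Ebf1 and Pax5 passed with the replicate as a block. That fit called 6394 genes, against 4349 without the block. With 4 libraries it leaves little from which to estimate spread, so its p-values are not given. Whether Pax5 passed depended on the setting. It passed without EV-RV replicate 2 (adjusted p = 0.0230 in edgeR), without IRF4-RV replicate 1 (0.000656), with library size only (0.0925) and with either other filter on low counts (0.000215 and 0.0888). Without EV-RV replicate 1 or IRF4-RV replicate 2 the adjusted p was 0.477 and 0.323, and in DESeq2 it was 0.357. Ebf1 passed without EV-RV replicate 2 (adjusted p = 0.0799 in edgeR), without IRF4-RV replicate 1 (0.0387) and with no filter beyond 1 count (0.0810).

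Of 6 chaperones that assemble Ig chains in the endoplasmic reticulum, 2 were called, and both rose. Over all genes tested 29.7% were called in either direction and 16% were called higher. Pdia4 and Hsp90b1 had log2 fold changes of 0.42 and 0.37. Without IRF4-RV replicate 1 the call of Hsp90b1 was lost (adjusted p = 0.106 in edgeR), which left 1 call.

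Of 10 genes that mark steps of pre-B cell development, 7 were tested, 2 rose and 4 fell. Beside these counts, 16% of all genes tested were called higher and 13.7% lower. Il2ra (CD25), a marker of small pre-B cells, and Ccnd2, which codes for cyclin D2, rose by 1.77 and 1.37 on the log2 scale. Dntt, which codes for terminal transferase, fell by 1.55 at a low level (86, 90, 34 and 31 counts). Ccnd3, which codes for cyclin D3, fell by 0.80. Cd2 and Il7r, the latter coding for the IL-7 receptor α chain, were the other genes called lower, at -0.31 and -0.29 (adjusted p = 0.0465 and 0.0686 in edgeR). The Cd2 call was lost without any single library (adjusted p 0.101 to 0.202 in edgeR), and in DESeq2 (0.105). The Il7r call was lost without EV-RV replicate 1 (adjusted p = 0.165 in edgeR), EV-RV replicate 2 (0.136) or IRF4-RV replicate 2 (0.446), and at an FDR of 0.05. Without IRF4-RV replicate 2, 4 genes of this list were called. Lgals1, which codes for galectin-1, a stromal ligand of the pre-B cell receptor, was at 314 to 370 CPM and did not pass the test.

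**Figure D4:**
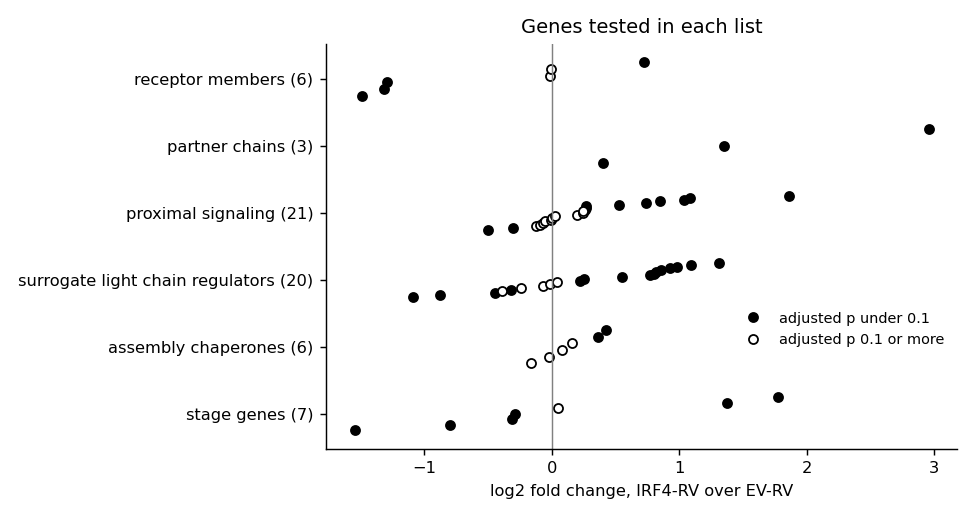
Log2 fold change, IRF4-RV over EV-RV (x axis), of each gene tested in the receptor and in 5 lists of related genes (rows, number tested in brackets). Filled points passed an adjusted p of 0.1 and open points did not, and all 3 partner chains lie to the right while the 3 surrogate light chain genes lie to the left.

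Genes beside the members were also read. Of 20 other protein-coding genes within 50 kb of a member, 14 were tested, 3 rose, 2 fell and 9 did not pass, a share near the 29.7% called over all genes. Both that fell lie by Igll1 and Vpreb1. Top3b, which codes for a topoisomerase, fell by 0.51 on the log2 scale, and its exons overlap those of Vpreb1 on the other strand. Ppm1f, which codes for a phosphatase, fell by 0.68. The log2 fold changes of Igll1 and Vpreb1 were larger in size than these, though that difference was not tested.

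By Vpreb3, Derl3 and Chchd10 rose by 1.07 and 0.45 on the log2 scale, and Smarcb1 did not pass the test (-0.07). Derl3 was at a low level (63, 75, 144 and 171 counts). By Cd79a, Gm9844 rose by 0.47 and Arhgef1 did not pass the test (-0.03). None of the 4 genes tested by Cd79b was called, and no protein-coding gene lay within 50 kb of Vpreb2.

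The genes most like the surrogate light chain genes were sought among 3814 genes with at least 50 CPM on average. The members, Irf4, all genes of the lists and marker sets and the neighbors were left out of this search. Likeness was the Euclidean distance between log2 profiles over the 4 libraries, centred on their means, and it is a description. The nearest was Kynu, a kynureninase, at a distance of 0.135, followed by Lfng, which modifies Notch receptors, at 0.179. Camk2d, a calmodulin-dependent kinase, was at 0.225, Srm, the spermidine synthase, at 0.226, and Enpep, the BP-1 antigen of early B cells, at 0.286. Igll1, Vpreb1 and Vpreb2 lay at 0.0759, 0.122 and 0.0544 from the mean profile they define.

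**Figure D5:**
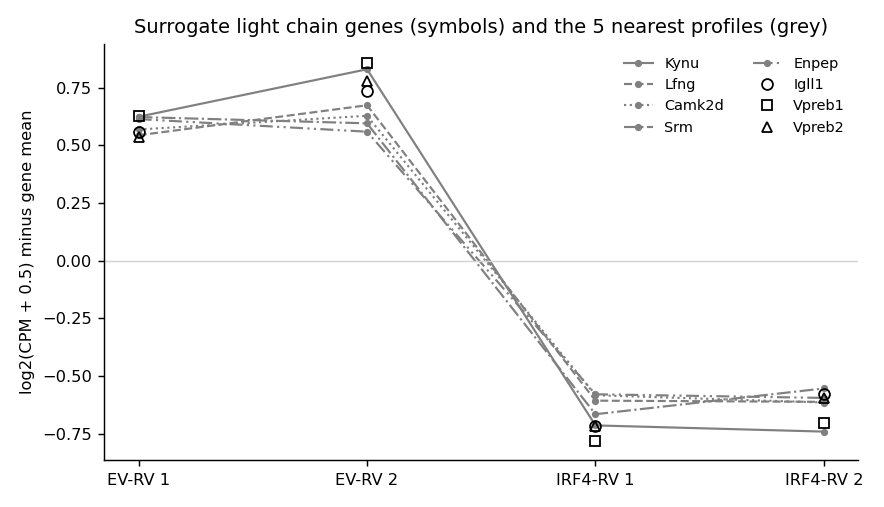
Log2(CPM + 0.5) minus the mean of each gene (y axis) in the 4 libraries (x axis). Symbols show the 3 surrogate light chain genes, and grey lines the 5 genes nearest to their mean profile among those searched. Every gene shown is above its own mean in both EV-RV libraries and below it in both IRF4-RV libraries, with Kynu nearest at a distance of 0.135.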

How the data were processed

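RNA of 4 libraries of T8 cells was sequenced, 2 with EV-RV and 2 with IRF4-RV. The authors aligned reads to GRCm38 with STAR (2.4.0j) and counted them per gene with featureCounts. The submitters' processing notes also name FastQC 0.11.2 and DESeq2 1.22.1. The authors deposited raw counts for 55359 identifiers, of which 52083 matched GENCODE M21 on GRCm38. Strand and multiple-alignment settings and read length are not given in the sources used here. Without strand, overlapping genes cannot be told apart.

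In R 4.3.3, genes kept by filterByExpr were tested with edgeR 4.0.16 (TMM factors, quasi-likelihood F test, Benjamini-Hochberg adjustment over all genes tested, FDR 0.1, the cutoff of the study). SE is the log2 fold change over the root of F. The second fit used Cd79a plus Cd79b counts as library size. Alternatives were DESeq2 1.42.0, its size factors, library size only, other filters, the replicate block, an FDR of 0.05, other references and each library left out. The procedure was tested on simulated data.

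The members and lists were chosen with earlier results of these data known. Genes named were the members, Irf4, the partner chains, neighbors within 50 kb, in each other list the called genes that rose most and fell most (2 each way), and the 5 nearest profiles. Genes outside this rule were picked with their values known. No label says that replicates came from separate cultures, so p-values may measure technical spread.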

Additional observations from a re-analysis of the deposited data

How the results depend on the processing

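The 6 members kept their direction and their side of the cutoff under all 11 alternatives each, and the 4 changes relative to Cd79a and Cd79b did so under all 10. Leaving out 1 library gave -1.39 to -1.20 for Igll1, -1.61 to -1.37 for Vpreb1, -1.44 to -1.19 for Vpreb2, 0.64 to 0.80 for Vpreb3, -0.0340 to -0.0036 for Cd79a and -0.02 to -0.01 for Cd79b. With library size only, 37.8% of calls were higher, against 53.8% with TMM, which moved the median over all genes tested to -0.08 (log2). DESeq2 called 3661 genes, against 4349 in edgeR, and an FDR of 0.05 left 3347.

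Replicate numbers do not show a shared batch or day in the labels, and deviations of same-numbered libraries correlated at 0.284 over genes. With the replicate as a block, the log2 fold changes were -1.30 for Igll1, -1.49 for Vpreb1, -1.31 for Vpreb2, 0.73 for Vpreb3, -0.01 for Cd79a and -0.01 for Cd79b, 6394 genes were called, and no member changed its call. Pax5 and Ebf1, not called without the block, were called with it, as were Syk, Btk and Hspa5. With 4 libraries the block leaves little from which to estimate spread, so these added calls are weak. Chaperones called were 4 with the block and 2 without it, and 1 to 2 with a library left out.

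For 46 other genes the same alternatives were added after seeing the data. Of 504 values, 463 kept direction and side, 17 lost the call, 17 gained it and 7 changed sign, all 7 in genes that were not called. Lgals1 went to -0.0417 with library size only, and leaving out 1 library gave -0.0509 to 0.145 (below 0 without EV-RV replicate 1 or IRF4-RV replicate 2). The range was -0.0852 to 0.0171 for Arhgef1 and -0.116 to 0.109 for Plcg2, above 0 without the same libraries. The cause was not tested. With 2 libraries a group, small changes of single genes are not resolved.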
